A study of Mus musculus with 6 samples.

Results

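The genes described here are the 9 that act on fluoropyrimidines or are acted on by them: *Tyms*, *Dut*, *Tk1* and *Tk2* of thymidylate metabolism, *Umps*, *Uck2*, *Upp1* and *Tymp* of pyrimidine salvage and activation, and *Dpyd* of pyrimidine breakdown. They were taken as a named list by their role, and all 9 were found by symbol among the 24190 genes of the count table. RNA was sequenced from MTO54, a line of colorectal cancer organoids whose genotype is labelled AKP and which was established from a primary tumor of a genetically engineered mouse. Cells were seeded in basement membrane extract, and after 2 days 3 parental MTO54 samples received Folfiri for 2 days and 3 parental MTO54 samples received fresh complete stem cell medium as control. Folfiri combined 5FU, whose dose is labelled as 50 μg/μl, with 100 nM SN38. The 5FU unit is unusually high for culture medium and could not be checked here, and the study elsewhere gives a longer treatment time than the labels do. Because the agents were given together, the effect of 5FU cannot be told apart from that of SN38, the active form of the topoisomerase I inhibitor irinotecan. Both groups are of the same single line, and the study describes the 3 samples per group as biological replicates, while the labels do not say whether they came from separate cultures or passages. The p values set the difference between the groups against the spread between these samples of the same line.

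5FU is a uracil analog that has no action until the cell turns it into nucleotides. Orotate phosphoribosyltransferase, a part of the UMPS protein, makes the monophosphate in a single step from 5FU, while uridine phosphorylase (UPP1) followed by a uridine kinase such as UCK2 reaches it by way of the nucleoside, and thymidine phosphorylase (TYMP) followed by thymidine kinase makes the deoxy form. That deoxy form, FdUMP, binds thymidylate synthase (TYMS) together with a folate cofactor and blocks the only de novo source of thymidylate. dUTPase (DUT) keeps dUTP and its fluorinated form out of DNA, the thymidine kinases TK1 and TK2 recover thymidine in the cytosol and in mitochondria, and dihydropyrimidine dehydrogenase (DPYD) carries out the first and rate-limiting step of 5FU breakdown.

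Total counts ranged from 22103591 to 30098210 per sample. Levels are TMM-scaled CPM, that is, counts relative to library size, and the TMM factors ranged from 0.880 to 0.966 in controls and from 1.10 to 1.11 after Folfiri. Log2 fold changes, Folfiri minus control (log2FC), and adjusted p values are from edgeR's quasi-likelihood test with Benjamini-Hochberg adjustment over the 14692 genes tested. With total counts only in place of TMM, the median log2FC of these genes was 0.30 and not 0.02, and 63.3% and not 51.0% of the calls were higher, so differences of about that size depend on the scaling. Control replicate 1 stood apart from the other controls, with a chi-square per degree of freedom of 23.7 and 22.4 against replicates 2 and 3, which had 3.84 between them. Folfiri replicate 3 stood apart to a lesser degree, with 12.3 and 11.9 against replicates 1 and 2, which had 3.55 between them, and the calls of the 9 genes were 4 higher and 3 lower without it too. All 8 epithelial markers reached a mean of 1 CPM in both groups, with summed levels of 5731 to 6638 CPM in controls and 4647 to 4818 CPM after Folfiri, although *Krt20* was near that limit (1.44 and 1.31 CPM). Of these 8, *Cdx2* (log2FC -1.53), *Epcam* (-0.94), *Krt19* (-0.62) and *Krt8* (-0.27, a call lost with total counts only) were lower after Folfiri and *Cdh1* (0.21) was higher. The summed level was 0.514 to 0.612 and 1.40 to 1.58 CPM for the 7 of 8 immune markers with counts in the table and 1.08 to 1.44 and 2.03 to 2.45 CPM for the 6 of 7 fibroblast markers, in controls and after Folfiri, with *Csf1r* and *Pdgfrb* at 0 in every control. Among the fibroblast markers *Pdgfra* (0.397 to 1.14 CPM) and *Dcn* (0.0240 to 0.694 CPM) were called higher and *Col1a1* (0.842 to 0.301 CPM) lower, in mean levels of controls and treated samples. The 4 endothelial markers summed to 72.2 to 125 CPM in controls and 65.7 to 76.4 CPM after Folfiri, nearly all of it from *Cdh5*, while *Pecam1* was at 0.470 and 0.459 CPM and *Kdr* at 0 in every control. These are bulk samples, in which fewer cells of a type and less RNA per cell cannot be told apart.

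Of the 9 genes, all passed the expression filter, 4 were higher after Folfiri (*Umps*, *Tyms*, *Tk2* and *Dut*), 3 were lower (*Dpyd*, *Upp1* and, with TMM but not with total counts only, *Tk1*) and *Uck2* and *Tymp* were not called. *Umps* rose 5.59-fold and *Tyms* 2.45-fold, while *Dpyd* was 10.6-fold and *Upp1* 3.45-fold lower. The share of genes called is high in these data. Over all genes tested it was 79.1% at an adjusted p under 0.05 (edgeR), with 40.3% higher and 38.8% lower, and 81.4% had CPM ranges that did not overlap between the groups, against 7 of the 9 genes by either measure. At a log2FC of at least 1 in either direction, 4 of the 9 genes were called against 36.3% of all genes tested. These counts are close to the background, so what follows concerns the size and direction for each gene rather than how many were called. The median log2FC of the 9 genes was 0.03, against 0.02 for all genes tested. Of all genes tested, 0.871% had a lower log2FC than *Dpyd* and 3.95% a higher log2FC than *Umps*.

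**Figure D1:**
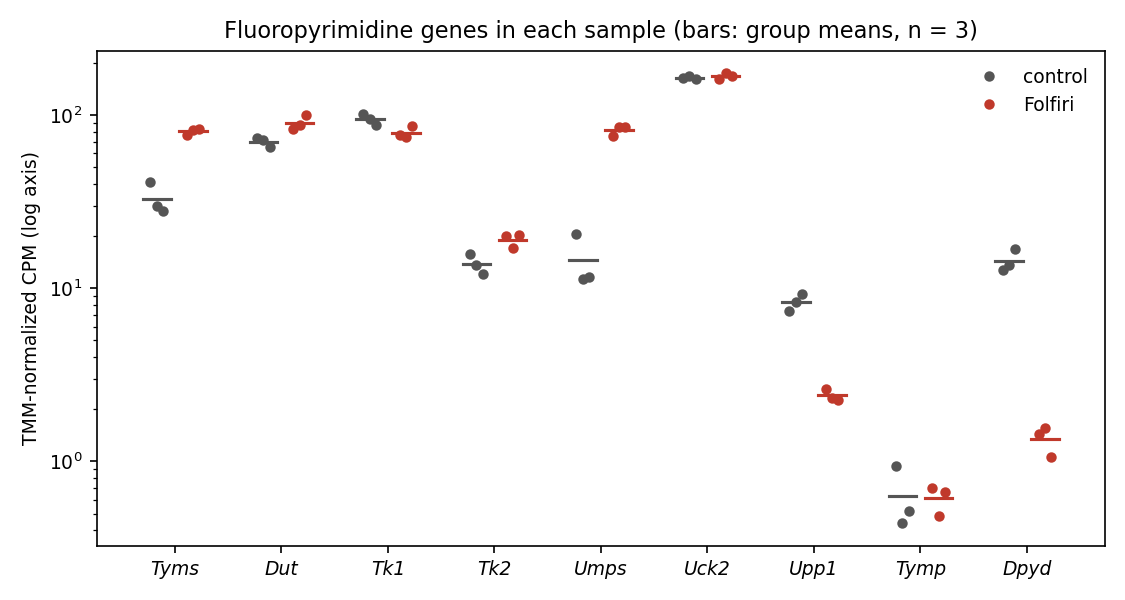
TMM-normalized CPM on a log axis for the 9 genes in each of the 6 samples, with control in grey and Folfiri in red and bars at the group means (n = 3 each). The groups lie apart for *Tyms*, *Dut*, *Tk1*, *Tk2*, *Umps*, *Upp1* and *Dpyd*, and overlap for *Uck2* and *Tymp*.

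The sequences just upstream of the genes with the largest changes and of the drug target are shown so that the regulatory DNA of a gene that fell and of genes that rose can be read side by side. They come from RefSeq on GRCm38.p6 and have in capitals the E-box CACGTG and the GC box GGGCGG or its complement CCGCCC. Those of *Tyms* and *Umps* end at the base before the RefSeq start site. The window of *Dpyd* is 199 bases and not 250 because GENCODE places its start earlier than RefSeq does, and it ends before the GENCODE start. The motif counts below use all 250 bases, which for *Dpyd* hold 2 GC boxes, not all of them in the printed part.
Tyms, chr5:30073626-30073875, minus strand: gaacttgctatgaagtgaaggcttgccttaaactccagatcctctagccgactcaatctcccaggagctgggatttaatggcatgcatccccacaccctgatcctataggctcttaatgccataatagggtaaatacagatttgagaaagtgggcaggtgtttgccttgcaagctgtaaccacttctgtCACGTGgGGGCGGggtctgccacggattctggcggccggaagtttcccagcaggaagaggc
Umps, chr16:33967039-33967288, minus strand: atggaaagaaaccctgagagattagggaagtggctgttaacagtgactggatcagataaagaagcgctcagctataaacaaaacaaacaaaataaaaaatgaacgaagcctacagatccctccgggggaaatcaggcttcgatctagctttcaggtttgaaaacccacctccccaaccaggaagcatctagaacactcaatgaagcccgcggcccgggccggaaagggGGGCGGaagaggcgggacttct
Dpyd, chr3:118561930-118562128, plus strand: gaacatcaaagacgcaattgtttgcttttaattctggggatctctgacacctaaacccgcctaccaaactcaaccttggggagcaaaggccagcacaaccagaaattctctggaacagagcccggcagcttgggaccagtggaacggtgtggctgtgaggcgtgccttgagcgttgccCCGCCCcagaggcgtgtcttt

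All 9 genes had an entry in the RefSeq promoter table, with 11 windows in all. In the 250 bases upstream of the start, 8 of the 9 genes had a GC box on either strand in at least 1 window. The motif was held by 56.5% of the windows of genes tested here and by 32.7% of all 32851 windows. A count of genes with any matching window and a share of windows are unlike measures, and not every *Upp1* window held the motif. The E-box CACGTG was found upstream of *Tyms* alone among the 9 genes, and in 8.1% of the windows of genes tested. The E2F-type letters TTTCGCGC or TTTGGCGC, on either strand, were in 0 of the 11 windows and in 1.2% of the windows of genes tested, and the CCAAT box, as CCAAT or ATTGG, was upstream of *Tymp* alone, against 35.7%. These are matches of letters in a short window, and no binding was measured.

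*Tyms* (ENSMUSG00000025747), on chromosome 5 of GRCm38 from 30058202 to 30073617, encodes the enzyme that FdUMP blocks. Its level was 40.9, 29.8 and 27.8 CPM in control replicates 1, 2 and 3 and 77.0, 81.8 and 83.2 CPM in Folfiri replicates 1, 2 and 3. Every treated sample was above every control, and control replicate 1 was the highest of the controls. The group means were 32.8 ± 7.07 and 80.7 ± 3.29 CPM (SD, n = 3 each), and its log2FC was 1.29 with SE 0.13 (edgeR adjusted p = 4.62e-06). Without control replicate 1 the log2FC was 1.48. A processed pseudogene, *Tyms-ps*, is annotated, and gene counts cannot show how reads that fit both were treated.

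*Dut* (ENSMUSG00000027203), on chromosome 2 from 125247190 to 125258608, encodes dUTPase, which also supplies dUMP, the substrate of thymidylate synthase. It was at 73.2, 71.7 and 65.0 CPM in the controls and at 82.7, 87.7 and 99.6 CPM after Folfiri. The lowest treated sample lay above the highest control, and the log2FC was 0.36 with SE 0.09 (edgeR adjusted p = 0.00271).

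The thymidine kinases moved in opposite directions, *Tk1* (ENSMUSG00000025574, chromosome 11 from 117815526 to 117826092) down and *Tk2* (ENSMUSG00000035824, chromosome 8 from 104226685 to 104248558) up, with the direction of *Tk1* depending on the scaling. *Tk1*, the cytosolic enzyme that is made mainly in S phase, was at 101, 95.02 and 87.5 CPM in the controls and at 77.0, 74.7 and 85.9 CPM after Folfiri, with the highest treated sample just below the lowest control. Its log2FC was -0.26 with SE 0.08 (edgeR adjusted p = 0.0145), and the call was lost without Folfiri replicate 1 (adjusted p = 0.0591) or replicate 2 (adjusted p = 0.0791). With scaling by total counts only it became 0.017 (adjusted p = 0.882). *Tk2*, the mitochondrial enzyme, was at 15.7, 13.6 and 12.0 CPM in the controls and at 20.0, 17.01 and 20.2 CPM after Folfiri, and its log2FC was 0.46 with SE 0.12 (edgeR adjusted p = 0.00438). No treated sample of *Tk2* was as low as the highest control. *Afmid* on the opposite strand shares 1.60% of the exonic bases of *Tk1*.

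*Umps* (ENSMUSG00000022814), on chromosome 16 from 33954782 to 33967038, encodes the enzyme that completes de novo UMP synthesis and can convert 5FU directly. Its level was 20.6, 11.3 and 11.7 CPM in the controls and 76.1, 84.8 and 85.0 CPM after Folfiri. The lowest treated sample stood far above the highest control, again control replicate 1. The means were 14.5 ± 5.28 and 82.0 ± 5.08 CPM (SD, n = 3 each), and its log2FC was 2.48 with SE 0.19 (edgeR adjusted p = 7.37e-07). The log2FC was 2.84 without control replicate 1. The antisense gene *Gm15829* shares 6.11% of its exonic bases.

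*Uck2* (ENSMUSG00000026558), on chromosome 1 from 167222883 to 167285320, encodes a uridine-cytidine kinase and varied little among the 6 samples. Its levels were 164, 167 and 162 CPM in the controls and 161, 174 and 168 CPM after Folfiri, so the groups overlapped. The log2FC was 0.03, with a 95% interval from -0.11 to 0.18 (edgeR adjusted p = 0.670). With total counts only it was 0.31 (adjusted p = 0.00186), close to the shift of all genes under that scaling.

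*Upp1* (ENSMUSG00000020407), on chromosome 11 from 9118103 to 9136170, encodes uridine phosphorylase, which adds ribose to 5FU or frees uracil from uridine. It was at 7.38, 8.36 and 9.26 CPM in the controls and at 2.62, 2.32 and 2.28 CPM after Folfiri. Both groups were tight and lay apart, and its log2FC was -1.79 with SE 0.14 (edgeR adjusted p = 9.95e-07). *Tymp* (ENSMUSG00000022615), on chromosome 15 from 89371931 to 89377039, encodes thymidine phosphorylase, and had from 10 to 26 counts per sample. Its levels were 0.936, 0.440 and 0.514 CPM in the controls and 0.704, 0.484 and 0.667 CPM after Folfiri. A difference was not detectable at this depth, as the 95% interval of its log2FC of -0.06 ran from -0.80 to 0.67 (edgeR adjusted p = 0.868), and its sign turned without control replicate 1 (0.39). *Sco2* on the same strand shares 42.0% of the exonic bases of *Tymp*, and *Ncaph2* on the opposite strand 26.3%, so its count is uncertain.

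*Dpyd* (ENSMUSG00000033308), on chromosome 3 from 118562129 to 119432924, encodes the enzyme that inactivates most 5FU in the body. Its level was 12.8, 13.6 and 16.9 CPM in the controls and 1.44, 1.55 and 1.06 CPM after Folfiri, from 328 to 355 counts and from 35 to 48 counts per sample. Every treated sample was many-fold below every control. The means were 14.4 ± 2.17 and 1.35 ± 0.256 CPM (SD, n = 3 each), and its log2FC was -3.41 with SE 0.18 (edgeR adjusted p = 5.15e-08). The estimate stayed between -3.51 and -3.26 when any single replicate was left out. *Dpyd* and *Tymp* are also expressed by myeloid cells. Of the 7 immune markers in the table, *Ptprc* was called higher after Folfiri, from 0.396 to 1.06 CPM (edgeR adjusted p = 0.000479), and the other 6 had at most 8 counts in any sample. The part of such cells in the *Dpyd* values was not tested.

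**Figure D2:**
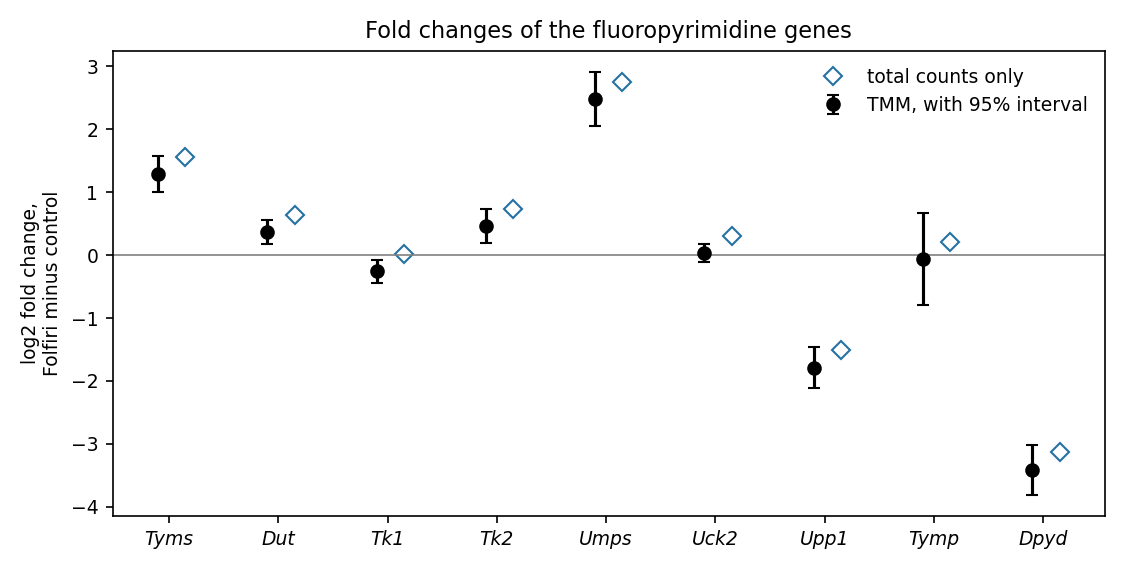
Log2 fold changes of the 9 genes, Folfiri minus control, from edgeR with TMM (black, with 95% intervals) and with total counts only (open blue diamonds). Total counts only moves each gene up by a similar amount, which takes *Tk1* from -0.26 to 0.017 and leaves *Umps*, *Tyms*, *Upp1* and *Dpyd* far from 0.

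Ratios between genes of the same sample do not depend on library scaling, and 6 of them were compared by an exact two-sided permutation test. With 3 samples against 3 the smallest p it allows is 0.1, which each ratio reached (adjusted p = 0.1 over the 6 ratios), since the groups did not overlap in any of them. The log2 ratio of *Upp1* to *Dpyd*, an activating against the inactivating enzyme, averaged -0.78 ± 0.08 for the controls and 0.84 ± 0.25 for the treated samples (SD, n = 3 each), a 3.08-fold shift toward *Upp1* although both genes fell. That of *Tymp* to *Dpyd* went from -4.53 ± 0.68 to -1.11 ± 0.50. The ratio of *Tyms* to *Tk1*, the de novo against the salvage source of thymidylate, went from -1.54 ± 0.21 to 0.03 ± 0.09. *Tyms* to *Dut* went from -1.11 ± 0.23 to -0.15 ± 0.09. The log2 ratio of *Tk1* to *Tk2* fell by 0.73, from 2.78 ± 0.09 to 2.06 ± 0.10, and that of *Uck2* to *Umps* fell by 2.52, from 3.55 ± 0.49 to 1.04 ± 0.05. The change in *Tk1* relative to *Tk2* thus did not rest on the scaling, unlike the fold change of *Tk1* by itself.

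**Figure D3:**
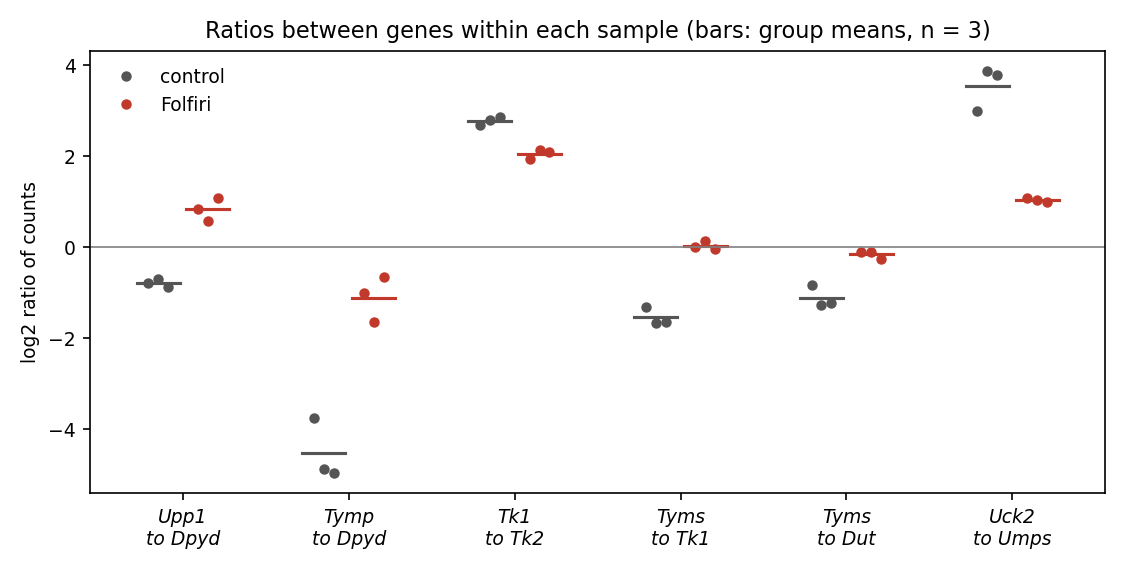
Log2 ratios of counts between pairs of genes within each sample, with control in grey, Folfiri in red and bars at the group means (n = 3 each). Controls and treated samples are apart in all 6 ratios, and the ratio of *Tymp* to *Dpyd* has the widest spread among controls (SD 0.68).

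Levels between genes were compared per kilobase of annotated exon, as CPM per kilobase. In controls *Uck2* (30.1 ± 0.488) and *Dut* (29.0 ± 1.81) were the highest and overlapped, followed by *Tk1* (18.2 ± 1.31). *Tyms*, *Upp1*, *Umps* and *Tk2* followed with means from 5.39 to 3.86 CPM per kilobase and ranges that overlapped from each to the next, and *Dpyd* (1.62 ± 0.244) and *Tymp* (0.309 ± 0.131) were lowest. After Folfiri no neighbours in the order overlapped. *Dut* (37.3 ± 3.60) came first, *Umps* (23.5 ± 1.46) had moved to the third place, *Tyms* (13.2 ± 0.540) was close under *Tk1* (15.2 ± 1.13), and *Dpyd* (0.152 ± 0.0288) was below *Tymp* (0.304 ± 0.0579) as the lowest of the 9. The length is that of all annotated exons merged, which understates the level of genes whose short transcripts make most of their RNA.

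Other genes of the same pathways were read from 4 lists, with 37 genes listed and 32 tested. Of these, 19 were higher and 5 lower (edgeR), a share of 75.0% against 79.1% for all genes tested, and the median log2FC was 0.45 against 0.02. Among genes that activate pyrimidines or carry them to di- and triphosphates, 7 of 13 were higher and 3 lower, with a median of 0.31. The share called in this list was 76.9%. *Nme1*, a nucleoside diphosphate kinase, rose from 25.9 ± 1.85 to 54.8 ± 9.50 CPM (SD, n = 3 each), and its count is uncertain because it shares exons with the readthrough gene *Gm20390* and has a near copy in *Nme2*. *Uck1*, the other main uridine-cytidine kinase, had a log2FC of 0.72 where *Uck2* was not called, and *Prps1*, which makes the ribose donor used by UMPS, had 0.71. *Cmpk1*, the UMP-CMP kinase, fell by 1.05 on the log2 scale, from 132 ± 4.18 to 63.5 ± 2.42 CPM (SD, n = 3 each). *Rrm1*, the large subunit of ribonucleotide reductase, fell from 294 ± 5.22 to 147 ± 3.49 CPM, and *Uckl1* fell by 0.57 on the log2 scale.

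The breakdown list held genes that deaminate, dephosphorylate or degrade pyrimidine nucleotides, and 3 of its 6 tested genes were higher and 1 lower. The share called was 66.7%, against 79.1% of all genes tested. *Dpys* and *Upb1*, the enzymes that follow dihydropyrimidine dehydrogenase, did not pass the filter, with at most 1 and 9 counts in any sample. *Cda*, cytidine deaminase, went down with *Dpyd*, from 36.6 ± 3.09 to 9.90 ± 1.29 CPM (SD, n = 3 each), a log2FC of -1.89 (edgeR adjusted p = 1.37e-07). *Dctd*, which makes dUMP from dCMP, rose by a log2FC of 0.90, *Dctpp1* by 0.77 and *Samhd1*, a dNTP hydrolase, by 0.69.

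Thymidylate synthase uses a folate as carbon donor, and FdUMP needs it to bind tightly. Of 8 genes of folate cofactor metabolism, 5 were higher, 1 was lower and 2 were not called, with a median log2FC of 0.64. The share called was 75%, against 79.1% of all genes tested. *Fpgs*, which adds glutamates that retain folates in the cell, rose from 7.77 ± 2.63 to 25.8 ± 1.31 CPM, and *Slc19a1*, the reduced folate carrier, from 8.27 ± 3.32 to 23.0 ± 0.506 CPM (SD, n = 3 each). *Shmt1*, which loads the carbon, had a log2FC of 1.06.

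Of 8 transporters, 5 were tested and 4 were higher, with a median log2FC of 0.92. The share called was 80%, against 79.1% of all genes tested. *Abcc4* was not called with TMM (log2FC 0.40, edgeR adjusted p = 0.0904) and was called higher with total counts only. *Slc29a2*, an equilibrative nucleoside transporter, was at 3.82, 2.72 and 1.90 CPM in the controls and 31.6, 33.2 and 35.7 CPM after Folfiri. This log2FC of 3.54 with SE 0.18 (edgeR adjusted p = 3.92e-08) was the largest among the tested genes of the 4 lists and the 9 genes. *Slc29a1*, its paralog, rose from 47.0 ± 4.26 to 88.9 ± 8.53 CPM (SD, n = 3 each). *Slc28a2*, a concentrative transporter, had 0 counts in all controls and 28 over the treated samples, at least 7.19-fold higher against a floor of 3 counts over the group, and *Slc28a3*, called higher at a log2FC of 2.04, had at most 4 counts in any control. Reads of *Uckl1*, *Shmt1*, *Fpgs* and *Slc29a1* may be shared with annotated genes that overlap up to 9.92% of their exonic bases.

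**Figure D4:**
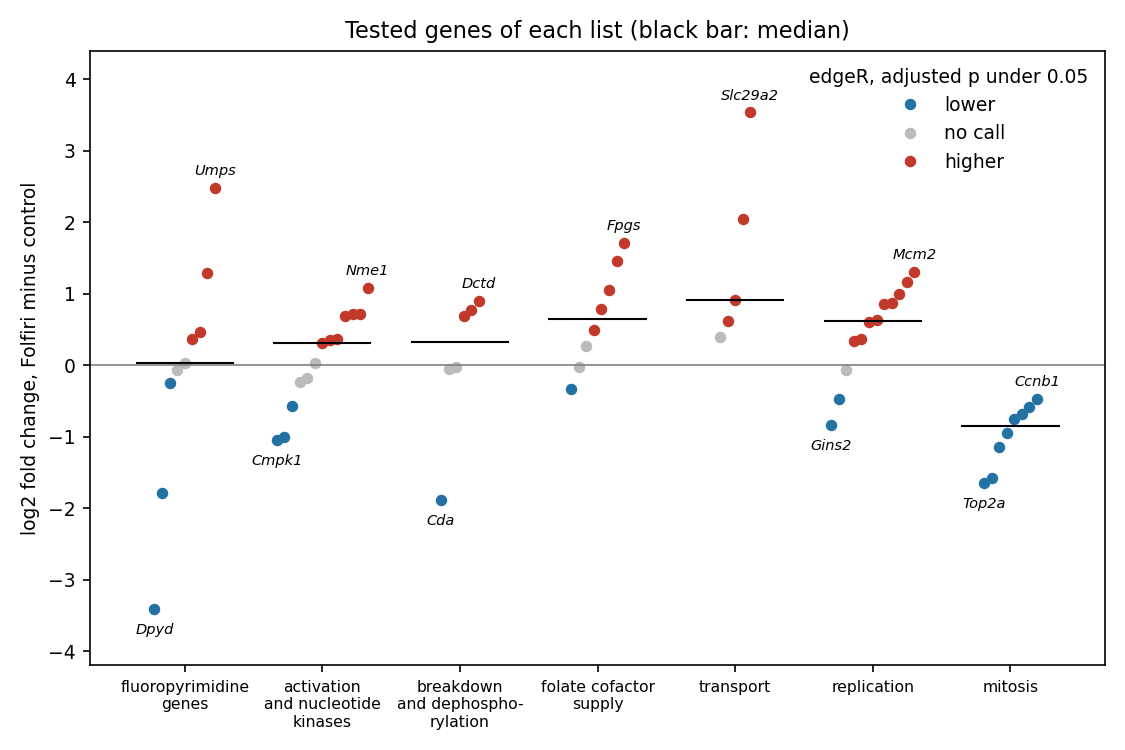
Log2 fold change, Folfiri minus control, of every tested gene of the 9 fluoropyrimidine genes, the 4 pathway lists and the replication and mitosis lists, colored by the edgeR call, with a black bar at each median and the highest gene of each list and each lowest gene at -0.5 or below named. The folate and transport lists lie mostly above 0, the mitosis list lies below 0, and *Dpyd* at -3.41 is the lowest gene shown.

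*Tyms*, *Tk1* and *Dut* are used when DNA is copied, so genes of replication and mitosis are set beside them. Of 12 replication genes 9 were higher and 2 lower, with a median log2FC of 0.62, and all 8 mitosis genes were lower, with a median of -0.85 (edgeR). The shares called were 91.7% and 100%, against 79.1% of all genes tested (40.3% higher and 38.8% lower). *Mcm2* and *Mcm3*, subunits of the replicative helicase, rose by log2FCs of 1.31 and 1.17 and the licensing gene *Cdc6* from 23.4 to 46.8 CPM, while *Mcm7* of the same helicase had -0.48, a call lost with total counts only (adjusted p = 0.0695), and *Gins2* had -0.84. *Gse1* on the opposite strand shares 67.3% of the exonic bases of *Gins2*. *Top2a* fell by 1.65, *Mki67* by 1.58 and *Aurkb* by 1.14 on the log2 scale. *Tyms*, at 1.29, lay within the range of the 12 replication genes and above their median. *Tk1*, at -0.26, also lay within it, above *Mcm7* and *Gins2* and below their median. The share of cells in each phase was not measured, and its part in these values was not tested.

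By the root mean square difference of log2 profiles over the 6 samples, the genes most like *Tyms* among those with a mean of at least 10 CPM were *Mcm2* (0.0217), *Gtf2h3* (0.0290) and *Gas2l1* (0.0329). For *Tk1* they were *Cops7a* (0.0298), *Fnta* (0.0308) and *Bscl2* (0.0404). For *Upp1* they were *Prrc1* (0.0371), *Dcaf6* (0.0421) and *R3hdm2* (0.0476), and for *Dpyd*, where the likeness was looser, *Olfm1* (0.0906), *Smtnl2* (0.0951) and *Stard4* (0.124). With 6 samples in 2 groups this measure is set mostly by the group difference.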

How the data were processed

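The authors aligned the reads with STAR 2.5.2 to the mouse genome (GRCm38, GENCODE vM25), used Rsubread to count reads per gene, and deposited these raw counts with no normalization. Strand and multimapper settings are not given in the sources used here, and the library kit does not mark strand, so reads of overlapping genes on opposite strands cannot be told apart. Groups and replicate numbers came from the sample labels. Symbols, positions and merged exon lengths came from GENCODE vM21 on the same build, which matched 24168 of 24190 identifiers.

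edgeR 4.0.16 in R 4.3.3 was run on all 6 samples with its default expression filter, TMM scaling and its quasi-likelihood test, and p values were adjusted by Benjamini-Hochberg over all genes tested, with 0.05 as threshold. The procedure was tested on simulated data. Ratios used counts with a prior count of 0.5, and profiles log2 of CPM plus 0.5. Counting intervals and floors cover counting error only. Alternatives were other scalings, other filters, DESeq2 1.42.0, the replicate number as a block and each replicate left out.

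The members and lists were chosen with earlier results of these data known, and the motifs after the sequences were seen. Named were the members, up to 3 genes per direction and list with the largest change among called genes with separate groups, and the 3 genes most like *Tyms*, *Tk1*, *Upp1* and *Dpyd*. *Dpys*, *Upb1*, *Slc28a2*, *Abcc4*, *Tyms-ps* and cell type markers were named outside this rule, after their values were seen. A gene of the folate list is not reported here, nor are the mutated genes of the line.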

Additional observations from a re-analysis of the deposited data

How the results depend on the processing

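Of 116 values of the 9 genes under the alternatives, 109 kept their direction and their side of the threshold. The exceptions concern *Tk1*, *Tymp* and *Uck2*. Under scaling by total counts only, *Tk1* had a log2FC of 0.017, *Tymp* 0.20 and *Uck2* 0.31, the last now past the threshold. Relative to the median of all genes under that scaling, an alternative chosen after seeing the data, *Tk1* was at -0.28, *Tymp* at -0.09 and *Uck2* at 0.01. *Tymp* was at 0.39 without control replicate 1 and at 0.09 without Folfiri replicate 2, and *Tk1* lost its call without Folfiri replicate 1 (-0.23) or 2 (-0.21). The number of the 9 genes called stayed at 4 to 5 higher and 2 to 3 lower. Without single replicates, *Tymp* ranged from -0.29 to 0.39, *Umps* from 2.32 to 2.84, *Tyms* from 1.18 to 1.48, *Upp1* from -1.87 to -1.72 and *Dpyd* from -3.51 to -3.26. Over all genes, 5271 to 7322 were higher and 4250 to 6159 lower. DESeq2's Wald test called 6054 higher and 5704 lower.

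Deviations of samples with the same replicate number from their group means correlated at 0.0394, -0.193 and 0.0432, and only control replicate 3 correlated best with its own number, so the numbers were not taken as pairs. With the replicate number as a block, 5878 genes were higher and 5621 lower, and of the 9 genes 4 were higher and 3 lower. Counts of 10 to 26 per sample limit *Tymp*.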
